A study of Mus musculus with 10 samples.

Results

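The genes described here are the transcriptional regulators of cardiac fuel oxidation that belong to, or work with, the peroxisome proliferator-activated receptors (PPARs) and the oestrogen-related receptors (ERRs). They were chosen by gene symbol, with earlier results of these data known. They comprise the PPAR genes Ppara, Ppard and Pparg, the ERR genes Esrra, Esrrb and Esrrg, the coactivator genes Ppargc1a and Ppargc1b, the partner receptor gene Rxra and the corepressor gene Nrip1. All 10 were present among the 11790 genes of the deposited table, and all 10 passed the filter of a mean of at least 1 FPKM (fragments per kilobase of exon, scaled to the counted reads of the library). RNA was sequenced from the hearts of 5 A-PDK1KO mice, which lack the kinase PDK1 (gene Pdpk1) in adipocytes, and of 5 control mice carrying the floxed allele (PDK1 flox/flox). Both groups were 10 to 11 weeks old and fed at random, and heart tissue was snap frozen before total RNA was extracted. The Cre line that drives the deletion and the sex of the mice are not stated in the labels, and the deletion is labelled as one of fat cells, not of the heart. No label says that equal replicate numbers mark related mice.

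PPARs are nuclear receptors that bind fatty acids and their derivatives, pair with a retinoid X receptor such as RXRα, the product of Rxra, and switch on genes of fatty acid uptake and oxidation. ERRs are orphan nuclear receptors that bind DNA without a known natural hormone and drive genes of the tricarboxylic acid cycle and the respiratory chain. Both families depend on the coactivators PGC-1α and PGC-1β (Ppargc1a and Ppargc1b), and are restrained by corepressors such as RIP140 (Nrip1). In the adult heart PPARα, ERRα, ERRγ and PGC-1α are known for sustaining the high rate of mitochondrial oxidation.

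The libraries held 9249256 to 11384423 counted reads, as recovered from the FPKM steps. Genes at 1 FPKM or more numbered 9671 to 10723, with the most in A-PDK1KO heart 2. The share of counted reads taken by mitochondrially encoded transcripts was 32.7% to 41.5%. The atrial transcript Myl7 reached 35.0 and 47.6 FPKM in A-PDK1KO hearts 3 and 5, and 85.9 and 71.3 FPKM in control hearts 2 and 5, against less than 1 FPKM in the other hearts, so these samples held unequal amounts of atrial tissue. The 8 cardiomyocyte markers summed to 14740 to 16634 FPKM in A-PDK1KO hearts and to 15566 to 18310 FPKM in control hearts. Pdpk1 averaged 3.46 ± 0.513 FPKM in A-PDK1KO hearts and 3.55 ± 0.256 FPKM in control hearts (SD, n = 5 each, limma adjusted p = 0.905), which does not check a deletion in fat cells. Of 12 adipocyte markers, Fabp4, Cidea and Cfd were in the table, and their sum was 107 to 170 FPKM in A-PDK1KO hearts and 105 to 147 FPKM in control hearts. Fabp4, which capillary endothelium also expresses, averaged 96.6 FPKM in A-PDK1KO hearts and 97.5 FPKM in control hearts. Cidea averaged 30.2 FPKM in A-PDK1KO hearts and 29.1 FPKM in control hearts, and Cfd 0.331 FPKM in A-PDK1KO hearts and 0.420 FPKM in control hearts. In whole tissue, fewer cells of a type and less RNA per cell cannot be told apart.

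None of the 10 regulator genes passed the test across all genes. With limma on log2(FPKM + 1) and Benjamini-Hochberg adjustment over 9987 tested genes, 0 of 10 regulators were called at an adjusted p under 0.05, where 2.08% of all tested genes were called. At an unadjusted p under 0.05, 1 of 10 regulators passed, Rxra, against 15.6% of all tested genes. None of the 10 had groups that did not overlap, against 4.96% of all tested genes (2.72% higher and 2.23% lower). On the log2 scale 3 regulators lay above 0 (Rxra, Esrrg and, by 0.0017, Ppargc1a) and 7 below 0, with a median difference of -0.03, beside 0.02 over all tested genes. The count of regulators called stayed at 0 in all 24 alternative fits, among them a limma voom test on the recovered reads, and the lowest adjusted p in any alternative was 0.115, for Esrra. In the fit that required a mean of at least 5 FPKM, only 4 of the 10 regulators were tested.

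**Figure D1:**
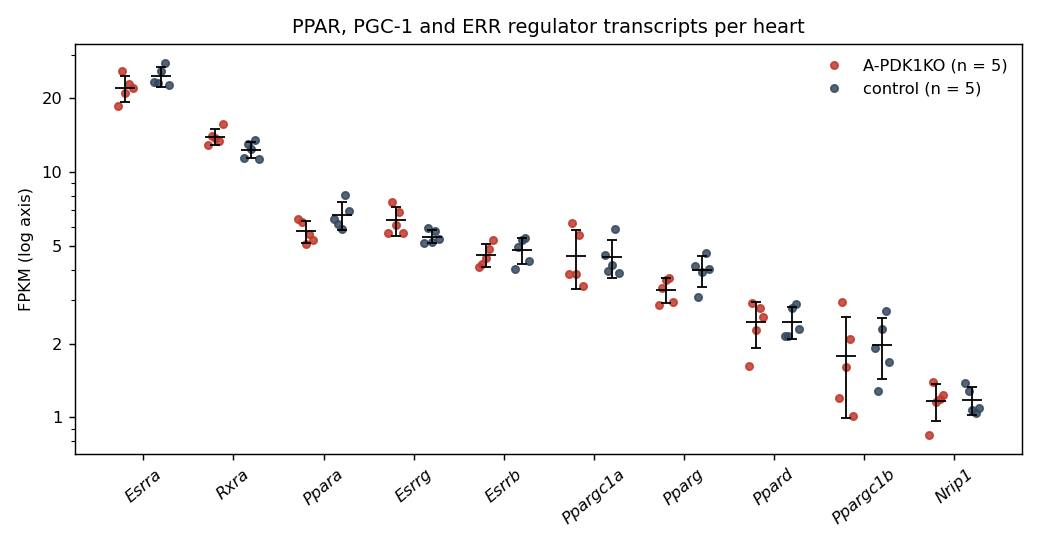
FPKM of each regulator in every heart, on a log axis, with A-PDK1KO hearts left of control hearts and regulators ordered by mean level; long bars mark group means and whiskers mark 1 SD (n = 5 each). Esrra is highest at a mean of 23.3 FPKM over the 10 hearts and Nrip1 lowest at 1.17 FPKM, and the 2 groups overlap for all 10 genes. The Esrra level is uncertain because its exons overlap those of other genes.

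FPKM is a value per length, so levels can be set side by side between genes. Over the 10 hearts Esrra averaged 23.3 FPKM, above 89.2% of the genes in the table, and Rxra averaged 13.1 FPKM, above 81.7%. Ppara (6.21 FPKM), Esrrg (5.91 FPKM), Esrrb (4.70 FPKM), Ppargc1a (4.53 FPKM) and Pparg (3.64 FPKM) followed in the middle of the table. Ppard averaged 2.45 FPKM, Ppargc1b 1.88 FPKM and Nrip1 1.17 FPKM, the last above only 19.7% of the genes. Esrra exceeded Rxra in 10 of 10 hearts, by a mean ratio of 1.77, and Rxra exceeded Ppara in 10 of 10 hearts, by 2.11, with no overlap of ranges in either pair. All lower neighbours had overlapping ranges. Ppara was above Esrrg in 6 of 10 hearts and Esrrb above Ppargc1a in 6 of 10, so neither pair could be ordered, while Pparg was above Ppard in all 10 hearts although their ranges touched.

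Promoter windows are shown for the partner receptor, the coactivator that responds to energy demand and the ERR of highest measured FPKM. These windows were chosen because they hold the motifs searched (Rxra and Ppargc1a) or none of them (Esrra). They come from RefSeq on GRCm38.p6, each from 250 bases before to 50 bases after a transcript start and written on the gene's own strand. Capitals mark matches to AGGTCA, the half-site bound by many nuclear receptors (TGACCT on the other strand), or to TGACGT, the half-site of the cyclic AMP response element (ACGTCA on the other strand). The Rxra window is a second start at chr2:27709042-27709341 on the plus strand. The Ppargc1a window is chr5:51567676-51567975 and the Esrra window chr19:6921759-6922058, both on the minus strand.
Rxra: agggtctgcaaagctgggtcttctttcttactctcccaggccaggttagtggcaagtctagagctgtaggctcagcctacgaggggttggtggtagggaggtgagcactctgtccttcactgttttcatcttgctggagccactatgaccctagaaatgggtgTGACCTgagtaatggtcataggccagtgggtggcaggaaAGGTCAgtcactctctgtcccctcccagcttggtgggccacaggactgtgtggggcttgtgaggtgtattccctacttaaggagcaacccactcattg
Ppargc1a: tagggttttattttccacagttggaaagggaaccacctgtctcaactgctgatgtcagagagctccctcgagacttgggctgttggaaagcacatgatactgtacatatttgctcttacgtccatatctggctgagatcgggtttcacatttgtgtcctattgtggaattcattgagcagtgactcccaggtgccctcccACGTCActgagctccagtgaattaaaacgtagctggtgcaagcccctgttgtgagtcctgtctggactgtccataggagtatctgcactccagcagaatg
Esrra: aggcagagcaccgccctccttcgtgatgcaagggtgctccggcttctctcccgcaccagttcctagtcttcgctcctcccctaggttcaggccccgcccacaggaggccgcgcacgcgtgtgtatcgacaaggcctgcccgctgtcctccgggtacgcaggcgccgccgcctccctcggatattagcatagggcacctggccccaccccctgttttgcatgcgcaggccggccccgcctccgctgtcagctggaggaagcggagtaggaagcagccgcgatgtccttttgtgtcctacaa
Of 17 windows found for 9 regulators, 3 held AGGTCA on either strand (2 of 3 windows of Pparg and 1 of 2 of Rxra), and 16.3% of all 32851 RefSeq windows did. The Ppargc1a window was the 1 of 17 with TGACGT, found in 7.51% of all windows. The longer ERR element TCAAGGTCA, which contains AGGTCA, was in 0 of 17 and in 0.423% of all windows. A match is a string of letters and says nothing of binding in these hearts.

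Ppara (ENSMUSG00000022383, chr15:85734983-85802819, mm10) encodes PPARα, the main fatty acid sensor of oxidative tissues. It measured 6.42, 6.29, 5.10, 5.61 and 5.29 FPKM in A-PDK1KO hearts 1 to 5, against 6.43, 6.15, 5.87, 8.04 and 6.96 FPKM in control hearts 1 to 5. Control heart 4 stood highest, 3 A-PDK1KO hearts lay below every control heart, and all 5 lay below the control median, but the groups overlapped. Ppara averaged 5.74 ± 0.590 FPKM in A-PDK1KO hearts and 6.69 ± 0.854 FPKM in control hearts (SD, n = 5 each), a ratio of 0.858. The log2 difference was -0.19 ± 0.09 (SE) with a 95% interval of -0.39 to 0.01, a limma adjusted p of 0.351 and an exact two-sided permutation p of 0.0635. Without control heart 4 the log2 difference was -0.13, with an exact permutation p of 0.135. The exact permutation p was 0.0476 without A-PDK1KO heart 1 and 0.0397 with median-of-ratios factors. It was 0.119 on the TPM scale and 0.119 to 0.143 without A-PDK1KO heart 3, 4 or 5 or control heart 5. Each value rested on 210 to 298 reads.

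Ppard (ENSMUSG00000002250, chr17:28232700-28301474) encodes PPARδ, the broadly expressed PPAR that drives fatty acid oxidation in muscle. Its levels were 1.62, 2.94, 2.28, 2.81 and 2.57 FPKM in A-PDK1KO hearts, against 2.14, 2.14, 2.80, 2.91 and 2.29 FPKM in control hearts. A-PDK1KO heart 1 was the lowest of the 10 and A-PDK1KO heart 2 the highest, so the control range lay inside the A-PDK1KO range. The means were 2.44 ± 0.522 FPKM in A-PDK1KO hearts and 2.45 ± 0.370 FPKM in control hearts. The log2 difference of -0.01 had a 95% interval of -0.27 to 0.24 (limma adjusted p = 0.976, exact permutation p = 0.929). Its sign turned without A-PDK1KO heart 1, where the difference was 0.08.

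Pparg (ENSMUSG00000000440, chr6:115360951-115490399) encodes PPARγ, the master regulator of fat cell formation, which is also present in vessels and macrophages. It measured 2.86, 3.37, 3.65, 3.72 and 2.94 FPKM in A-PDK1KO hearts, against 4.14, 3.11, 3.92, 4.69 and 4.05 FPKM in control hearts. Only control heart 2 reached down into the A-PDK1KO range, and all 5 A-PDK1KO hearts lay below the control median. The means were 3.31 ± 0.394 FPKM in A-PDK1KO hearts and 3.98 ± 0.571 FPKM in control hearts, a ratio of 0.831. The log2 difference was -0.21 ± 0.10 (95% interval -0.42 to 0.01), with an exact permutation p of 0.0714 and a limma adjusted p of 0.341. Without control heart 2 the exact permutation p was 0.0159, with median-of-ratios factors 0.0397, and without control heart 4 it was 0.143 at a log2 difference of -0.16. The reads behind each value numbered 81 to 134. The endothelial markers summed to 162 to 238 FPKM in A-PDK1KO hearts and 164 to 203 FPKM in control hearts, and the macrophage markers to 117 to 162 FPKM and 132 to 167 FPKM in the same order. The part of these cells in the Pparg level was not tested.

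Rxra (ENSMUSG00000015846, chr2:27676440-27762957) encodes RXRα, one of the retinoid X receptors that pair with the PPARs and with several other nuclear receptors. It measured 12.9, 14.0, 13.8, 13.4 and 15.7 FPKM in A-PDK1KO hearts, against 11.4, 13.1, 12.5, 13.5 and 11.3 FPKM in control hearts. The 3 highest hearts were A-PDK1KO hearts 5, 2 and 3, all 5 A-PDK1KO hearts lay above the control median, and control hearts 2 and 4 overlapped with the rest. The means were 13.9 ± 1.04 FPKM in A-PDK1KO hearts and 12.3 ± 0.968 FPKM in control hearts, a ratio of 1.13. The log2 difference was 0.16 ± 0.07 (95% interval 0.01 to 0.32), with an unadjusted limma p of 0.0440, an adjusted p of 0.304 and an exact permutation p of 0.0397. The exact p missed 0.05 on the TPM scale (0.0873), with median-of-ratios factors (0.0714), and without A-PDK1KO heart 2, 3 or 5 or control heart 1, 3 or 5 (0.0556 to 0.0794). Rxra varied least within groups, with a coefficient of variation of 7.67%, where counting error alone gives 3.47%.

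Ppargc1a (ENSMUSG00000029167, chr5:51454250-51567726) encodes PGC-1α, the coactivator that couples PPARs and ERRs to mitochondrial gene programmes and that responds to fasting, cold and exercise. It measured 3.83, 6.20, 3.83, 5.53 and 3.43 FPKM in A-PDK1KO hearts, against 4.61, 3.96, 4.19, 5.84 and 3.88 FPKM in control hearts. A-PDK1KO hearts 2 and 4 and control heart 4 stood above the other 7, so the spread ran across hearts of both genotypes. The means were 4.56 ± 1.22 FPKM in A-PDK1KO hearts and 4.50 ± 0.801 FPKM in control hearts. The log2 difference had a 95% interval of -0.31 to 0.31 (limma adjusted p = 0.998, exact permutation p = 1), and its sign depended on the setting.

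Ppargc1b (ENSMUSG00000033871, chr18:61298136-61400431) encodes PGC-1β, the related coactivator with overlapping roles in mitochondrial content. It measured 1.20, 2.96, 1.61, 2.09 and 1.02 FPKM in A-PDK1KO hearts, against 1.92, 1.29, 2.29, 2.72 and 1.68 FPKM in control hearts. The same 3 hearts ranked among its 4 highest, with control heart 3. The means were 1.78 ± 0.779 FPKM in A-PDK1KO hearts and 1.98 ± 0.552 FPKM in control hearts, and the log2 difference was -0.13 (95% interval -0.52 to 0.27, limma adjusted p = 0.807, exact permutation p = 0.548). With 1 heart left out it ranged from -0.27 (without A-PDK1KO heart 2) to -0.022 (without A-PDK1KO heart 5). It was -0.054 without A-PDK1KO heart 1, -0.041 without control heart 4 and -0.22 without control heart 2. Ppargc1b varied most of the 10 genes, with a within-group coefficient of variation of 36.8% against 12.0% from counting error at 42 to 115 reads.

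Nrip1 (ENSMUSG00000048490, chr16:76287400-76373827) encodes RIP140, a ligand-dependent corepressor that opposes PGC-1 at oxidative genes. It measured 0.846, 1.40, 1.15, 1.19 and 1.24 FPKM in A-PDK1KO hearts, against 1.39, 1.28, 1.08, 1.04 and 1.09 FPKM in control hearts. A-PDK1KO heart 1 was lowest and A-PDK1KO heart 2 highest, and the groups overlapped throughout. The means were 1.16 ± 0.201 FPKM in A-PDK1KO hearts and 1.18 ± 0.152 FPKM in control hearts (log2 difference -0.01, 95% interval -0.21 to 0.19, limma adjusted p = 0.979, exact permutation p = 0.913).

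Esrra (ENSMUSG00000024955, chr19:6910977-6921813) encodes ERRα, the main ERR of oxidative tissues. Its exons overlap those of Trmt112 on the opposite strand and of the microRNA gene Mir6990, and the strand setting of the counting is not given by the labels, so its level is uncertain. It measured 18.5, 25.7, 21.0, 22.9 and 22.1 FPKM in A-PDK1KO hearts, against 23.3, 23.1, 25.8, 28.0 and 22.7 FPKM in control hearts. Below every control heart lay 3 A-PDK1KO hearts, while A-PDK1KO heart 2 lay above 3 control hearts. The means were 22.0 ± 2.64 FPKM in A-PDK1KO hearts and 24.6 ± 2.26 FPKM in control hearts, a ratio of 0.897. The log2 difference was -0.15 ± 0.09 (95% interval -0.35 to 0.04, limma adjusted p = 0.446, exact permutation p = 0.135). With median-of-ratios factors the exact permutation p was 0.00794, the smallest that 5 against 5 allows, at a log2 difference of -0.18, and without A-PDK1KO heart 2 it was 0.0238 at -0.21. Without A-PDK1KO heart 1 the log2 difference was -0.096 and without control heart 4 it was -0.11, each with an exact permutation p of 0.286.

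Esrrb (ENSMUSG00000021255, chr12:86361117-86521628) encodes ERRβ, best known for its role in stem cells, the placenta and the inner ear. It measured 4.12, 4.23, 4.46, 4.87 and 5.30 FPKM in A-PDK1KO hearts, against 4.04, 4.94, 5.27, 5.39 and 4.35 FPKM in control hearts. The A-PDK1KO values all lay inside the control range. The means were 4.59 ± 0.488 FPKM in A-PDK1KO hearts and 4.80 ± 0.584 FPKM in control hearts (log2 difference -0.05, 95% interval -0.25 to 0.15, limma adjusted p = 0.854, exact permutation p = 0.579).

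Esrrg (ENSMUSG00000026610, chr1:187608791-188214885) encodes ERRγ, which shares most cardiac targets with ERRα and is enriched in heart and slow muscle. It measured 5.63, 7.59, 6.07, 6.90 and 5.63 FPKM in A-PDK1KO hearts, against 5.16, 5.91, 5.17, 5.73 and 5.35 FPKM in control hearts. A-PDK1KO hearts 2, 3 and 4 lay above every control heart and all 5 lay above the control median, with overlap through A-PDK1KO hearts 1 and 5. The means were 6.36 ± 0.860 FPKM in A-PDK1KO hearts and 5.46 ± 0.341 FPKM in control hearts, a ratio of 1.16. The log2 difference was 0.18 ± 0.09 (95% interval -0.01 to 0.37), with an unadjusted limma p of 0.0571, an adjusted p of 0.340 and an exact permutation p of 0.0476. The exact p was 0.111 on the TPM scale and 0.0635 to 0.127 without A-PDK1KO heart 2, 3 or 4 or control heart 1, 3, 4 or 5. Without A-PDK1KO heart 2 the log2 difference was 0.12.

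**Figure D2:**
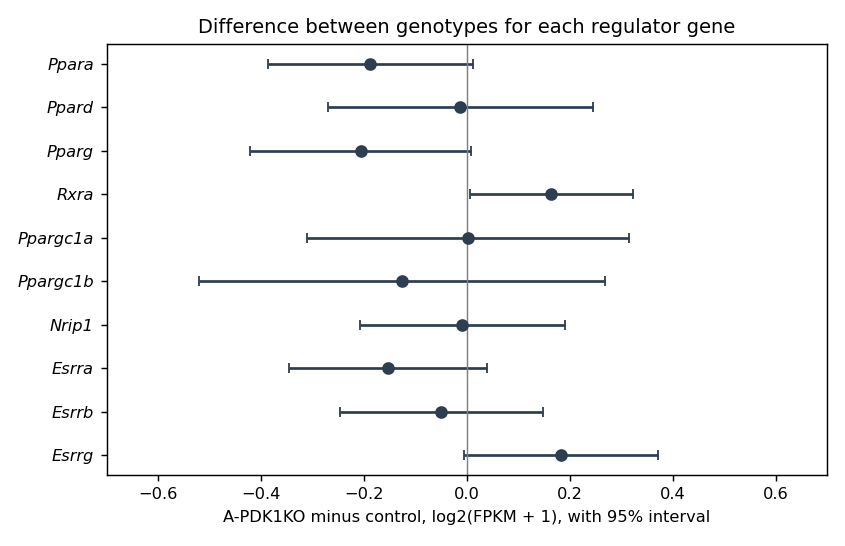
Difference between genotypes for each regulator, A-PDK1KO minus control on the log2(FPKM + 1) scale; points are the estimates and bars the 95% intervals from limma. The interval lies above 0 for Rxra alone (0.01 to 0.32) and crosses 0 for the other 9, with the widest for Ppargc1b (-0.52 to 0.27).

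The make-up of each family was then expressed as the share of its summed FPKM in each heart, a description with no test. Esrra made up 66.7% ± 1.15 of ERR FPKM in A-PDK1KO hearts and 70.5% ± 1.51 in control hearts, a difference of -3.79 percentage points. Esrrg made up 19.9%, 20.2%, 19.3%, 19.9% and 17.0% in A-PDK1KO hearts, against 15.9%, 17.4%, 14.3%, 14.7% and 16.5% in control hearts. The Esrrg shares thus overlapped only through A-PDK1KO heart 5 and control heart 2, and averaged 19.3% ± 1.29 in A-PDK1KO hearts and 15.7% ± 1.30 in control hearts, 3.52 points apart. Esrrb held 14.0% ± 1.74 in A-PDK1KO hearts and 13.8% ± 0.874 in control hearts. The Esrra part of these shares carries the same uncertainty from overlapping genes. The summed ERR level was 33.0 ± 3.47 FPKM in A-PDK1KO hearts and 34.8 ± 2.85 FPKM in control hearts.

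Among the PPARs, Ppara held 50.0% ± 5.19 of the family FPKM in A-PDK1KO hearts and 51.0% ± 2.74 in control hearts. Pparg held 28.8% ± 2.96 in A-PDK1KO hearts and 30.3% ± 1.94 in control hearts, and Ppard 21.2% ± 3.71 in A-PDK1KO hearts and 18.7% ± 2.13 in control hearts. All 3 shares overlapped between genotypes. The summed PPAR level was 11.5 ± 0.818 FPKM in A-PDK1KO hearts and 13.1 ± 1.56 FPKM in control hearts, with ranges of 10.8 to 12.6 FPKM and 11.4 to 15.6 FPKM in the same order. Ppargc1a held 72.8% ± 3.92 of PGC-1 FPKM in A-PDK1KO hearts and 69.7% ± 3.94 in control hearts, and the PGC-1 sum was 6.34 ± 1.98 FPKM in A-PDK1KO hearts and 6.48 ± 1.29 FPKM in control hearts.

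**Figure D3:**
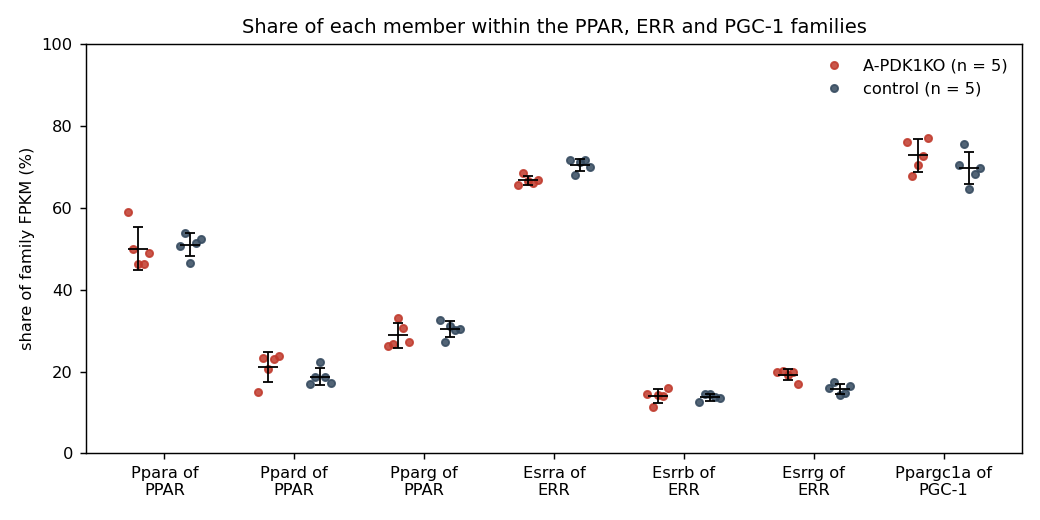
Share of each gene in the summed FPKM of its family (%), per heart, with A-PDK1KO hearts left of control hearts; long bars are means and whiskers 1 SD (n = 5 each). Esrra shares are lower in A-PDK1KO hearts (66.7% on average) than in control hearts (70.5%), and Esrrg shares higher (19.3% and 15.7% in the same order).

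Several regulators deviated together from heart to heart within the genotypes. A-PDK1KO heart 2 was the highest of the 10 hearts for 5 of 10 regulators and control heart 4 for 4 of 10, where these hearts were highest for 35.7% and 22.5% of all tested genes. A-PDK1KO heart 1 was the lowest for 4 of 10 regulators, against 18.4% of all tested genes. Hearts A-PDK1KO 2 and control 4 also had many genes at 1 FPKM or more (10723 and 10214) and low mitochondrial shares (34.3% and 32.7%), and the part of this in the shared deviations was not tested.

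After each genotype's mean was subtracted, the correlation across the 10 hearts (Pearson r, a description over values that share libraries and depth) was highest for Ppard and Esrra, at 0.941. It was 0.903 for Ppargc1a and Ppargc1b, the coactivator pair, and 0.818 for Esrrb and Rxra. Ppargc1b and Esrra had 0.809, Ppargc1a and Esrrg 0.790, and Ppargc1a and Esrra 0.764. The lowest value of the 45 pairs was -0.348, for Ppara and Nrip1. The median over the 45 pairs was 0.397 and 40% exceeded 0.5, beside a median of 0.21 and 22.6% over all pairs of tested genes. Without A-PDK1KO heart 2 and control heart 4 the median over the regulator pairs was 0.309 and 22.2% exceeded 0.5, beside 0.08 and 16.9% over all pairs. Over those 8 hearts Ppard and Esrra had 0.975 and Esrrb and Rxra 0.822. The coactivator pair had 0.771, whereas Ppargc1a and Esrra had 0.395. Under -0.5 lay 6 pairs over the 8 hearts and 0 over the 10, among them Ppara and Esrra (-0.732, against 0.223 over 10 hearts) and Ppara and Ppard (-0.652, against 0.0219). The share of all pairs of tested genes under -0.5 was not computed, so this count has no background beside it.

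**Figure D4:**
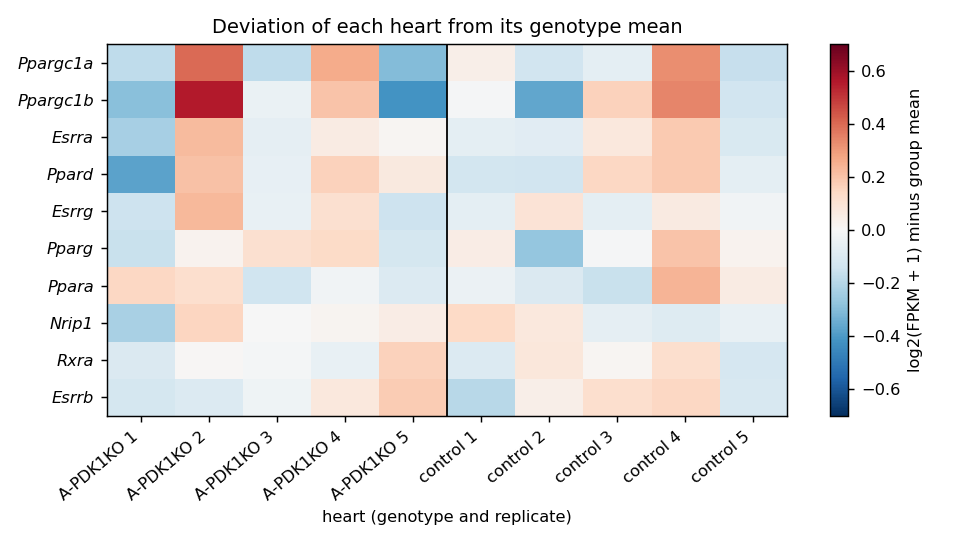
Deviation of each heart from its genotype mean for each regulator, in log2(FPKM + 1) units; columns are hearts, A-PDK1KO left of control, and red marks values above the group mean. A-PDK1KO heart 2 and control heart 4 are red for most regulators, and the rows of Ppargc1a and Ppargc1b follow each other (r = 0.903).

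For each regulator, the tested genes whose within-genotype deviations followed it most closely over the 10 hearts were looked up, with r as the measure of likeness. They were Mrpl43 (0.938) and Zrsr2 (0.927) for Ppara, Psmg2 (0.965) and Acbd4 (0.964) for Ppard, and Sh2d3c (0.964) and Zdhhc5 (0.939) for Pparg. Selenon (0.954) and Dpf2 (0.948) were nearest to Rxra. Fam210a (0.977) and Nasp (0.967) were nearest to Ppargc1a. Icmt (0.965) was near to Ppargc1b and Selenop (0.957) to Nrip1. Among the ERRs, Map2k1 (0.975) and Mccc1 (0.969) were nearest to Esrra, Trim28 (0.937) and Ubqln2 (0.923) to Esrrb, and Klhl12 (0.975) and Myo9a (0.964) to Esrrg. None of these genes was called between genotypes, and each comes from the top of 9986 comparisons over 10 hearts.

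The genes that these regulators act on or with were examined as 4 lists, drawn up with earlier results of these data known, so their counts are descriptions and not independent evidence. A gene was entered under PPAR targets or under PGC-1 and ERR targets, not under both, although PPARs and ERRs both depend on PGC-1. Which regulator acts on a listed gene in these hearts was not tested. Of 32 listed PPAR targets, 30 were in the table and 29 were tested, and 4 were called, all higher in A-PDK1KO hearts, which is 13.8% against 1.21% of all tested genes called higher. The list median was 0.21 on the log2 scale, beside 0.02 over all tested genes, with 26 of 29 above 0 (5457 of all 9987), and 10 of 29 had groups that did not overlap, all higher, against 2.72% of all tested genes. Ech1, a dienoyl-CoA isomerase of fatty acid oxidation, averaged 684 ± 44.4 FPKM in A-PDK1KO hearts and 556 ± 32.6 FPKM in control hearts (log2 difference 0.30, limma adjusted p = 0.0325). Cpt2, which releases fatty acyl groups from carnitine inside mitochondria, averaged 92.4 ± 3.56 FPKM in A-PDK1KO hearts and 75.7 ± 6.53 FPKM in control hearts (0.29, adjusted p = 0.0451). Slc25a20, the carnitine-acylcarnitine carrier, averaged 53.5 ± 2.12 FPKM in A-PDK1KO hearts and 44.7 ± 2.55 FPKM in control hearts (0.25, adjusted p = 0.0455). Decr1, a dienoyl-CoA reductase, averaged 153 ± 10.9 FPKM in A-PDK1KO hearts and 124 ± 9.33 FPKM in control hearts (0.30, adjusted p = 0.0482).

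These 4 calls lay close to the threshold. The count was 0 without A-PDK1KO heart 2, 3, 4 or 5 or control heart 2, 3 or 5, 1 without A-PDK1KO heart 1, and 2 without control heart 1 or 4, while the list median stayed between 0.16 and 0.28 in all 24 alternatives. A-PDK1KO heart 2 stood highest for several targets that were not called. Angptl4, an inhibitor of lipoprotein lipase, measured 2.03, 17.5, 2.68, 2.83 and 1.96 FPKM in A-PDK1KO hearts, against 2.05, 2.09, 1.08, 0.672 and 1.11 FPKM in control hearts. Its log2 difference was 1.02 with all hearts and 0.52 without A-PDK1KO heart 2 (adjusted p 0.275 and 0.184). The uncoupling protein gene Ucp3 measured 10.1, 26.7, 10.8, 12.9 and 11.1 FPKM in A-PDK1KO hearts, against 7.31, 10.5, 8.54, 9.17 and 10.7 FPKM in control hearts, with log2 differences of 0.50 and 0.26 in the same order. Ehhadh, the peroxisomal bifunctional enzyme, measured 7.28, 12.1, 6.89, 6.13 and 6.64 FPKM in A-PDK1KO hearts, against 3.37, 5.36, 4.21, 3.71 and 5.48 FPKM in control hearts. Every A-PDK1KO heart lay above every control heart for Ehhadh, at a log2 difference of 0.68 ± 0.17 and an adjusted p of 0.0576. Pdk4, the kinase that shuts off pyruvate dehydrogenase, averaged 539 FPKM in A-PDK1KO hearts and 402 FPKM in control hearts (0.45, adjusted p = 0.311). Cpt1b averaged 0.602 FPKM in A-PDK1KO hearts and 0.383 FPKM in control hearts, below the filter, and shares exons with Gm44502, so its level is uncertain.

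The list of PGC-1 and ERR targets, mostly genes of the tricarboxylic acid cycle and the respiratory chain, had a median of -0.03. Of 33 tested members of 36 listed, 11 lay above 0 and 22 below, 1 was called (lower, 3.03%, against 0.871% of all tested genes called lower) and 0 were called higher. The called gene was Slc25a4, the heart ATP/ADP carrier, at 1899, 1845, 1813, 1938 and 1943 FPKM in A-PDK1KO hearts, against 2177, 2317, 2342, 2372 and 2340 FPKM in control hearts. The groups did not overlap, and the log2 difference was -0.29 ± 0.05 (limma adjusted p = 0.0127). It was still called with any one heart left out. On the TPM scale, with median-of-ratios factors and after quantile normalization the adjusted p was 0.0563, 0.0585 and 0.0571. Cox4i1, Cycs, Cox5a and Sdhb, respiratory chain genes, had log2 differences of -0.16, -0.12, -0.10 and -0.09, with adjusted p of 0.184, 0.368, 0.405 and 0.455. Perm1, a muscle gene induced by PGC-1 and ERR, averaged 53.7 FPKM in A-PDK1KO hearts and 58.4 FPKM in control hearts (-0.10). All 8 cardiomyocyte markers also lay below 0, with a median of -0.10 and 0 called, and the part of cardiomyocyte content in this list was not tested.

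Of 21 partner and related receptors, 17 were tested and 1 was called, higher in A-PDK1KO hearts (5.88%, against 1.21% of all tested genes called higher), with a list median of 0.05. The count was 0 without A-PDK1KO heart 3 or 5 or control heart 3. The other retinoid X receptors were not called, with Rxrb at 9.23 FPKM in A-PDK1KO hearts and 10.2 FPKM in control hearts (log2 difference -0.14) and Rxrg at 18.6 FPKM in A-PDK1KO hearts and 19.5 FPKM in control hearts (-0.07). On average Rxrg was more abundant than Rxra in both genotypes. Nr4a1, Thra, Nr1h3 and Rora were not called (adjusted p 0.188, 0.222, 0.298 and 0.361).

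Among 25 coregulators, all tested, 0 were called, against 2.08% of all tested genes. Above 0 lay 17, with a median of 0.07, and 3 of 25 had an unadjusted limma p under 0.05, against 15.6% of all tested genes. Voom, which tested 24 of the 25, also called 0. Lpin1, a phosphatidate phosphatase that also acts as a coactivator of PPARα and PGC-1α, had the lowest p. It measured 10.8, 12.8, 14.2, 12.0 and 15.6 FPKM in A-PDK1KO hearts, against 6.90, 8.02, 9.66, 11.5 and 7.92 FPKM in control hearts. Control heart 4 alone overlapped, and the log2 difference was 0.53 ± 0.13 with an adjusted p of 0.0528 (0.0253 without control heart 4). Ncoa2, a steroid receptor coactivator, averaged 3.29 ± 0.349 FPKM in A-PDK1KO hearts and 2.61 ± 0.0820 FPKM in control hearts, without overlap (0.24, adjusted p = 0.137). Prmt1, Tbl1xr1 and Fam120b had adjusted p of 0.308, 0.383 and 0.419. The corepressor gene Ncor1 averaged 7.48 FPKM in A-PDK1KO hearts and 7.61 FPKM in control hearts, and Ncoa1 averaged 2.74 FPKM in A-PDK1KO hearts and 2.41 FPKM in control hearts.

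**Figure D5:**
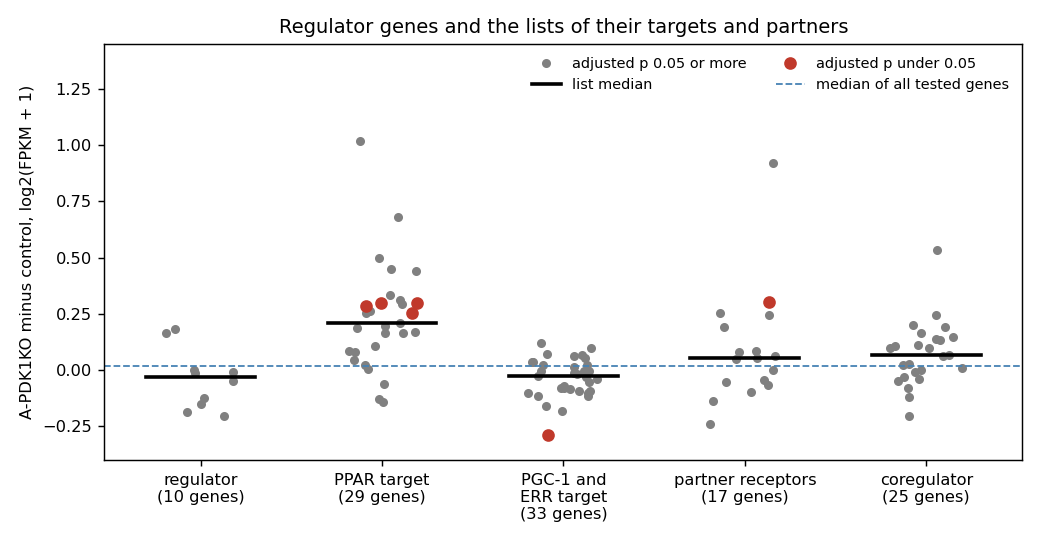
Difference between genotypes, A-PDK1KO minus control in log2(FPKM + 1), for each tested gene of the regulators and of the 4 lists; red points have an adjusted p under 0.05, black bars are list medians and the dashed line is the median of all tested genes (0.02). The 10 regulators lie around -0.03 with no red point, and the 29 PPAR targets around 0.21 with 4 red points.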

How the data were processed

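Heart RNA of 10 mice (5 A-PDK1KO, 5 control, grouped by the genotype label) was sequenced as paired-end reads. The labels' protocols give FastQC 0.11.7, and the submitters' processing notes list Trimmomatic 0.38, HISAT2 2.1.0, featureCounts 1.6.3 and the mm10 build. Neither source gives an annotation or a strand setting. The authors deposited FPKM values per gene, 1 column per heart, for 11790 genes, each reaching at least 1.00 FPKM in some heart. Here values were converted to log2(FPKM + 1), so differences of low genes are understated.

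The model was fitted in limma 3.58.1 (R 4.3.3) to genes averaging 1 FPKM or more (empirical Bayes with trend, two-sided, A-PDK1KO minus control, no covariate), with Benjamini-Hochberg adjustment over 9987 genes. Each regulator also had an exact permutation test (two-sided, every split of 10 hearts into 5 and 5), for which 0.00794 is the smallest p possible.

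Read numbers were recovered from FPKM steps and gene lengths (exons of GENCODE mouse release 21 merged), which gave whole reads within 0.05 of a read in all libraries for 98.3% of genes, and limma voom was run on these reads. Rxra was whole at a length of 6303 bases and Esrra at 4414, not at the 5462 and 4387 of GENCODE, so their read numbers use those lengths. Coordinates of genes are from the same GENCODE release and promoter windows from RefSeq. In simulated data the test on log values recovered 65% of 1.5-fold and 100% of 2-fold changes among 9804 genes. Every gene was drawn independently with the same dispersion of 0.0155. These percentages therefore cannot be carried over to genes of wider spread, such as Ppargc1b. Shares, sums and correlations were computed from FPKM or log2 values in each heart.

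The regulators, the lists and the settings were chosen with earlier results of these data known. The genes named are the 10 regulators, the 5 tested members of lowest p of each of the 4 lists, a set of example genes (Perm1, Lpin1, Pdk4, Cpt1b, Angptl4, Ucp3, Rxrb, Rxrg, Ncor1 and Ncoa1), the marker genes, and for each regulator the 2 genes of highest correlation, predicted genes left out, and some genes that meet this rule are not reported here. The motifs were chosen after the promoter windows were seen. The voom test and the fit without A-PDK1KO heart 2 and control heart 4 were chosen after seeing the data. A column of cluster numbers was not used. Separate mice are implied by the labels, and each p-value sets a difference between groups against the variation among these samples.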

Additional observations from a re-analysis of the deposited data

Results flagged for a closer look

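None of the 10 regulators had a heart that stood far from the other 4 of its genotype. Of 78 groups examined for 39 genes, 10 did, and chance alone gives such a heart in about 1 in 20 groups. Of these 10, 6 were A-PDK1KO heart 2, high for the PPAR targets Angptl4 (17.5 FPKM), Ucp3 (26.7 FPKM), Ehhadh (12.1 FPKM) and Cpt1b (1.40 FPKM), for the receptor Rora (2.24 FPKM) and for the coregulator Tbl1xr1 (4.13 FPKM). A-PDK1KO heart 1 was low for Rxrb (7.53 FPKM). Control heart 5 was low for Ech1 (498 FPKM). Control heart 1 was low for Slc25a4 (2177 FPKM) and for Cox5a (294 FPKM).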

How the results depend on the processing

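The count of regulators called was 0 in every alternative run, including a threshold of 0.1, while their targets' counts moved. At a mean of 5 FPKM only 4 of the 10 regulators were tested. PPAR targets called numbered 4 with all settings as described, 0 on the TPM scale and in hearts with Myl7 under 10 FPKM, 1 with no filter, with median-of-ratios factors, with atrial tissue as a covariate and without both A-PDK1KO heart 2 and control heart 4, 7 by voom, 8 at a mean of 5 FPKM, without mitochondrial and haemoglobin genes and with sample weights, 9 after quantile normalization and at the threshold of 0.1, and 0 to 2 with 1 heart left out. PGC-1 and ERR targets called fell to 0, against 1, on the TPM scale, with median-of-ratios factors, after quantile normalization and in hearts with Myl7 under 10 FPKM (1 with 1 heart left out). Partner receptors called were 0, against 1, on the TPM scale, with median-of-ratios factors, with the replicate block, in hearts with Myl7 under 10 FPKM and without the pair of hearts, 2 with sample weights, and 0 to 1 with 1 heart left out. Coregulators called were 1 (Lpin1), against 0, at a mean of 5 FPKM, with median-of-ratios factors, without mitochondrial and haemoglobin genes, after quantile normalization, with robust variances, with sample weights, without the pair of hearts and at the threshold of 0.1, and 0 to 1 with 1 heart left out. Of all tested genes 2.08% were called, against 5.08% at a mean of 5 FPKM, 0.63% on the TPM scale, 3.27% without mitochondrial and haemoglobin genes, 4.13% with sample weights, 0.0397% in hearts with Myl7 under 10 FPKM, 3.69% at the threshold of 0.1, and 0.570% to 1.51% with 1 heart left out. The fit in hearts with Myl7 under 10 FPKM kept only A-PDK1KO hearts 1, 2 and 4 and control hearts 1, 3 and 4. Its fewer calls therefore also come with fewer hearts. The cause of these shifts was not tested.

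Some log2 differences turned in sign. Ppard was 2.81e-05 without mitochondrial and haemoglobin genes and -0.065 to 0.081 with 1 heart left out. Ppargc1a was -0.0016 with a pseudocount of 0.1, -0.024 with median-of-ratios factors, -0.023 after quantile normalization, -0.018 with the atrial covariate, -0.016 without the pair of hearts, -0.031 with sample weights, and -0.098 to 0.083 with 1 heart left out. With 1 heart or the pair left out, Esrrb ranged from -0.099 to 0.0100 (the highest without the pair) and Nrip1 from -0.070 to 0.047. Perm1 (-0.16 to 0.0031) and Ncor1 (-0.12 to 0.035) also turned with 1 heart left out. Ppara, Pparg, Ppargc1b, Esrra, Esrrg and Rxra kept their sign in every alternative run that tested them. Same-numbered hearts did not deviate together (correlations of -0.12 to 0.09, and 0 of 5 numbers closest to their own). With 5 numbers and deviations that run through whole libraries, this cannot decide whether the numbers pair the hearts. The replicate block gave 153 called genes and 0 regulators. At 42 to 115 reads, Ppargc1b had a counting error of 12.0%, beside a within-group coefficient of variation of 36.8%. Counting error was thus the smaller part of its spread.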
